A study of Homo sapiens with 10 samples.

Results

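The nuclear genes for the subunits of mitochondrial complex I were followed in the human prostate cancer lines DU145 and LNCaP. Members were all genes with an NDUFA, NDUFB, NDUFC, NDUFS or NDUFV symbol followed by digits, named alone on at least 1 probe set of the array. This gave 32 members among 14313 genes tested, and all 32 passed the filter on dim probe sets. Each member was represented by its probe set of highest mean, so the choice used no difference between groups. NDUFS5, NDUFS8 and NDUFC2 were listed only on probe sets that carry several symbols. These 3 genes, NDUFA4 and the 7 mitochondrially encoded subunits were not analysed here.

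Total RNA was hybridised to 10 Affymetrix expression arrays in 6 groups. In each line, 2 arrays held cells with the PGK vector, a ubiquitous promoter driving GFP and puromycin resistance, and 2 held cells with the EOS vector, in which OCT4 and SOX2 enhancers drive the same genes. EOS cells were enriched by growth in puromycin, and the labels do not say whether PGK cells were grown in it too. A further 1 array per line held EOS cells treated with ribavirin, a guanosine analogue, at a dose and time not given in the sources used here. The labels tie that array to EOS number 2. DU145 is an androgen-independent line and LNCaP an androgen-responsive one. Every group thus carries a vector. Whether the 2 arrays of a group hold separately grown cells is not stated, and the p-values therefore cover their spread alone, which could be technical.

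Complex I, NADH:ubiquinone oxidoreductase, is the largest enzyme of the respiratory chain: it oxidises NADH, reduces ubiquinone and pumps protons across the inner mitochondrial membrane. Its matrix arm holds the flavin, the iron-sulfur clusters and the quinone site, while its membrane arm holds the proton pumps, and supernumerary subunits surround the conserved core. Most subunits are encoded in the nucleus, and the factors NRF1, GABP (of the ETS family) and YY1 are known to act on promoters of respiratory chain genes.

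The members differed most between the lines, and the promoters of 4 members are shown first. NDUFB7 and NDUFB8 were taken as the members of largest difference, higher and lower in LNCaP. NDUFB4 was taken for its NRF1 matches, the most of any member, and NDUFA9 as the only member with NRF1 and YY1 matches. Both were also higher in LNCaP. The sequences run from 250 bases before the RefSeq start site to 30 bases after it. They are given 5′ to 3′ on the gene's strand, in assembly GRCh38.p14. NDUFB7 lies at chr19:14572037-14572316 on the minus strand, NDUFB4 at chr3:120596086-120596365 on the plus strand, NDUFA9 at chr12:4648864-4649143 on the plus strand and NDUFB8 at chr10:100529842-100530121 on the minus strand. Capitals mark matches, on either strand, to an NRF1 motif (GCGCA, any base, then GCGC), the ETS motif CCGGAAGT or the YY1 motif AANATGGCG.
NDUFB7: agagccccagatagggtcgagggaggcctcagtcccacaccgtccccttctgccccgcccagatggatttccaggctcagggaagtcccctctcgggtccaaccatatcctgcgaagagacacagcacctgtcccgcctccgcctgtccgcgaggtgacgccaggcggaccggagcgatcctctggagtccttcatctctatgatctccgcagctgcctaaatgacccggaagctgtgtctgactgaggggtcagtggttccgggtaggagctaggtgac
NDUFB4: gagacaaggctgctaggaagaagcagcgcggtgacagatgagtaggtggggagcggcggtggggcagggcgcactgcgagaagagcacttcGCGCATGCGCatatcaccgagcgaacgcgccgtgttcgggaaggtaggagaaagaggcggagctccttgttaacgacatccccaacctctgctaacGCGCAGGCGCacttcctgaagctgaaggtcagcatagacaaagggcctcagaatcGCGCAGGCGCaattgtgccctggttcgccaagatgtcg
NDUFA9: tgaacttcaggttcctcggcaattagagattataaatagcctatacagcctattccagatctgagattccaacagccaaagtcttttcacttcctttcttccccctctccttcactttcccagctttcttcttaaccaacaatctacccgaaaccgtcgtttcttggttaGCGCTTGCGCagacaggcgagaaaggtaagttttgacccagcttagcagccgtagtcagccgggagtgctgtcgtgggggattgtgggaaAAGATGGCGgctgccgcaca
NDUFB8: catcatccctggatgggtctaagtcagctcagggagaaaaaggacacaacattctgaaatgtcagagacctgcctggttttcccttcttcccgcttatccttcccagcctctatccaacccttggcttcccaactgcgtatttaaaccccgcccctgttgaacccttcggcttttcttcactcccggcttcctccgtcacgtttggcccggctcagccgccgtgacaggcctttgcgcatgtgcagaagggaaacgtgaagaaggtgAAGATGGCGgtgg
In NDUFB4 the 3 marked matches were to the NRF1 motif, from -159 to -150, from -63 to -54 and from -8 to 2 relative to the start site, which is position 1 and follows -1. NDUFA9 held an NRF1 match from -80 to -71 and a YY1 match from 11 to 19. NDUFB8 held a YY1 match from 18 to 26, and NDUFB7 had no match to any of the 3 motifs in this window. The table holds 2 start sites for NDUFB8, 52 bases apart. The 1 shown was taken because it holds the match, and the entry of the other has no match to any of the 3 motifs.

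RefSeq promoter entries, 300 bases long, were found for 30 of the 32 members. The YY1 motif occurred in 10 of these 30 (33.3%), against 7.26% of 11511 tested genes with a promoter entry and 3.85% of all 27305 genes in the table. Its carriers were NDUFV2, NDUFS1, NDUFS3, NDUFS7, NDUFS4, NDUFS6, NDUFA6, NDUFA7, NDUFA9 and NDUFB8. A gene with several entries was counted if any of them held a match, as for NDUFB8. The NRF1 motif occurred in 6 members (NDUFA9, NDUFA12, NDUFA3, NDUFA8, NDUFA11 and NDUFB4), or 20%, against 12.2% of the tested genes and 6.98% of all genes. The ETS motif occurred in 2 members, NDUFS1 and NDUFA13 (6.67%), against 8.98% and 4.95%. No matches of different motifs overlapped. These shares are descriptions of letters in a window and carry no test.

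Markers of the lines followed the labels. KLK3, the androgen-driven gene for prostate-specific antigen, read 14.80 to 15.33 in LNCaP and 4.62 to 5.89 in DU145 on the log2(scaled intensity + 16) scale used throughout, whose floor is 4. Of the LNCaP markers, 3 of 5 were found and all 3 were higher in LNCaP without overlap, and 4 of 4 DU145 markers were higher in DU145. KRT18, an epithelial keratin, read 13.45 to 14.15 in DU145 and 13.86 to 14.15 in LNCaP. The other epithelial keratin, KRT8, read 8.42 to 11.84 in DU145 and 10.89 to 12.53 in LNCaP. In the lists for other cell types, the summed intensity (as log2) of 5 fibroblast genes, of which 3 passed the filter, was 8.45 to 10.19 in DU145 and 8.33 to 9.72 in LNCaP, and that of 4 leukocyte genes, of which 2 passed, 6.63 to 7.36 and 6.54 to 8.16. The median probe set of an array lay at 6.12 to 6.45. The 4 arrays numbered 1 had a deposited trimmed mean of 500 and the 6 arrays numbered 2 of 96.6 to 127. For ACTB, the 3′ probe set was 1.24 to 1.51 times as bright as the 5′ one in the former and 3.20 to 3.99 times in the latter. Each PGK and EOS group held 1 array of each number.

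Complex I transcripts were bright in every group: the 32 probe sets had means from 11.63 to 14.42 over the 10 arrays. In the heat map of the members by array, the LNCaP columns are mostly red and the DU145 columns mostly blue.

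**Figure D1:**
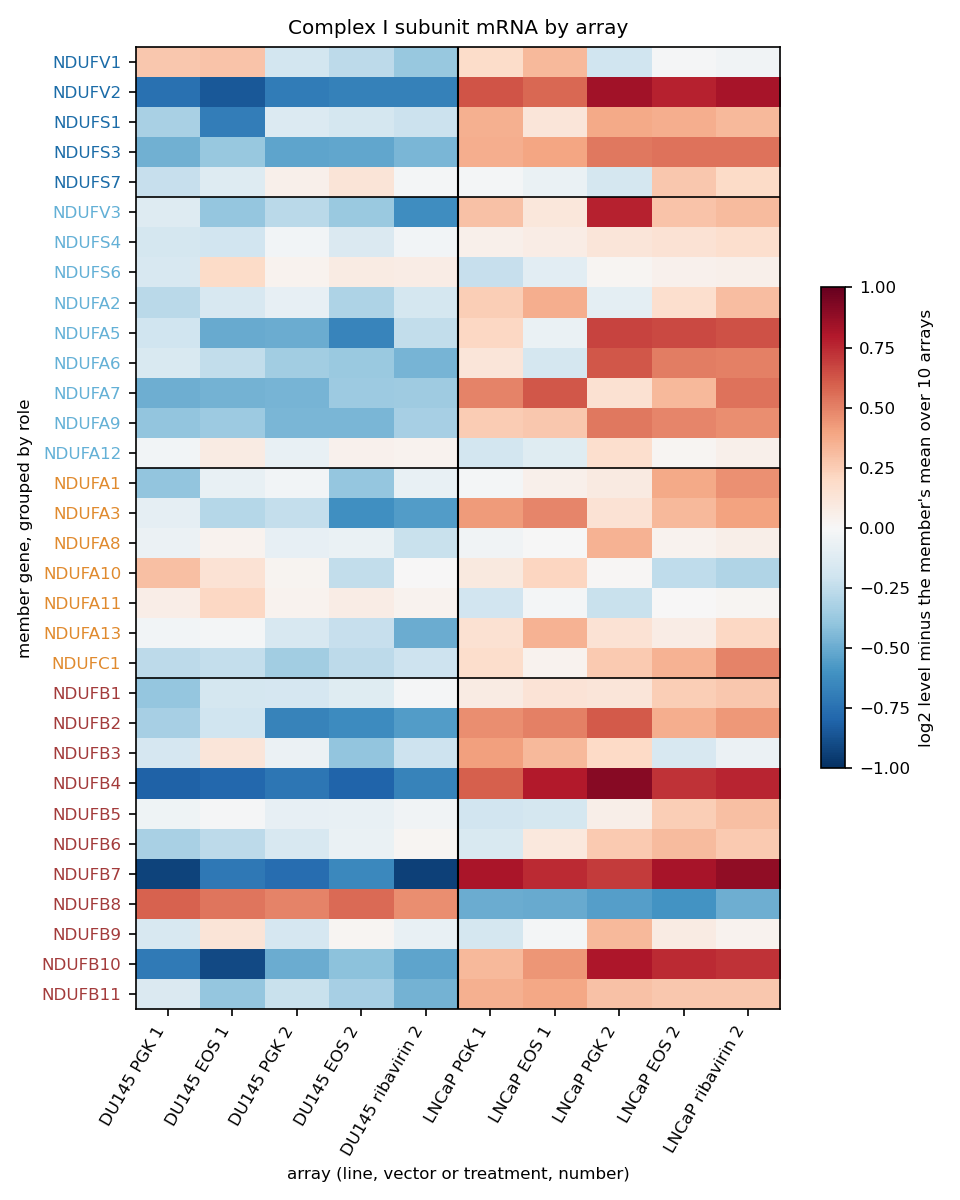
Each row is 1 of the 32 members, grouped by role, and each column 1 of the 10 arrays. Colour gives the log2 level minus the member's own mean over the 10 arrays, red above and blue below. Between 22 and 28 members stood above their own mean in each LNCaP array and between 4 and 9 in each DU145 array. NDUFB8 alone has the opposite colours across the whole row.

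The first comparison was of LNCaP with DU145, as the mean of the PGK and EOS states. Most members were higher in LNCaP: 17 of 32 were called higher and 1, NDUFB8, lower, at a limma adjusted p under 0.05 over all genes. The median difference was 0.37 on the log2 scale, against -0.006 over all genes, and 27 of 32 members lay above 0. The lines differ broadly, with 46.2% of all genes called, 22.6% higher and 23.6% lower. The 18 members called are 56.25% of the members. On unscaled intensities, where the number 2 arrays keep their lower scale, 0 members and 3.33% of all genes were called. Without overlap, all 5 LNCaP arrays exceeded all 5 DU145 arrays for 18 members (20.4% of all genes) and fell below them for 2, NDUFA11 and NDUFB8 (22% of all genes). Fewer cells of a type and less RNA per cell cannot be told apart in such bulk samples, nor a change in all mRNA, since each array was scaled to a common mean.

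Among the core subunits of the matrix arm, 3 of 5 were called higher, with a median difference of 0.64. NDUFV2, an iron-sulfur subunit beside the flavin site, read 12.48 and 12.52 in the DU145 PGK arrays, 12.37 and 12.54 in the EOS arrays and 12.54 with ribavirin. In LNCaP it read 13.84 and 14.06, then 13.79 and 13.99, then 14.04. Every LNCaP array was thus above every DU145 array by at least 1.25. The fitted difference was 1.44 ± 0.11 (SE), or 2.72-fold, with a limma adjusted p of 1.58e-05.

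NDUFS3, a core subunit near the quinone site, read 11.91 and 11.86 in DU145 PGK, 12.01 and 11.87 in EOS and 11.93 with ribavirin. The LNCaP values were 12.75 and 12.91, 12.78 and 12.93, and 12.93. Again the lines did not overlap, and the difference was 0.93 ± 0.11 (limma adjusted p = 0.000216). NDUFS1, the largest subunit of the arm and a carrier of iron-sulfur clusters, ran from 11.12 to 11.68 in DU145 and from 11.94 to 12.20 in LNCaP. Its difference was 0.64 ± 0.15, and it was not called with the PGK arrays alone or with the mean of its kept probe sets. NDUFV1, which binds NADH and the flavin, differed by 0.05 ± 0.18 with a 95% interval of -0.36 to 0.45. NDUFS7, which carries the last iron-sulfur cluster before ubiquinone, differed by 0.05 ± 0.14 (interval -0.27 to 0.37). Neither was called, and their arrays overlapped between the lines.

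The supernumerary subunits of the matrix arm had 6 of 9 members called higher and none lower, with a median of 0.55. NDUFA7 ran from 12.33 to 12.47 in DU145 and from 12.98 to 13.44 in LNCaP, a difference of 0.85 ± 0.13. NDUFA9, which sits near the quinone site and has a dinucleotide-binding fold, differed by 0.80 ± 0.12. NDUFA5 differed by 0.83 ± 0.19, NDUFV3 by 0.65 ± 0.14, NDUFA6 by 0.55 ± 0.18 and NDUFA2 by 0.37 ± 0.12. All 6 passed the limma threshold, though NDUFA2 and NDUFA6 kept their call in only 6 and 8 of 19 other settings. NDUFA2 lost it without any 1 of the 4 PGK and EOS arrays of DU145 or the 2 of LNCaP numbered 1. NDUFA6 lost it without any 1 of those of DU145 or the 2 of LNCaP numbered 2. With the mean of kept probe sets, NDUFA7 and NDUFV3 were not called, and NDUFV3 was not with the EOS arrays alone. NDUFS4, needed for a stable matrix arm, differed by 0.23 ± 0.11, NDUFS6, a zinc-binding subunit, by -0.10 ± 0.11, and NDUFA12 by -0.04 ± 0.11. These 3 were not called.

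In the membrane arm outside the NDUFB series, 2 of 7 members were called, both higher, with a median of 0.29. They were NDUFA3, at 0.65 ± 0.13, which was not called with the PGK arrays alone, and NDUFC1, at 0.48 ± 0.10, which was not with the EOS arrays alone. NDUFA1 (0.34 ± 0.13) and NDUFA13 (0.29 ± 0.11), the latter also known as GRIM-19, had limma adjusted p of 0.0638 and 0.0614 and did not pass. With the array number as a replicate block both were called (limma adjusted p = 0.0388 and 0.0233). NDUFA11 stood on the other side at -0.20 ± 0.09 (limma adjusted p = 0.096), NDUFA10 at -0.04 ± 0.16 and NDUFA8, which faces the intermembrane space, at 0.13 ± 0.12.

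The NDUFB series, which builds the outer part of the membrane arm, held the members farthest apart in both directions: 6 of 11 were called higher and 1 lower. NDUFB7, on the intermembrane space face, read 10.73 and 10.89 in DU145 PGK, 10.94 and 11.01 in EOS and 10.72 with ribavirin. LNCaP gave 12.47 and 12.35, 12.40 and 12.48, and 12.55. The gap between the highest DU145 and the lowest LNCaP array was 1.34, and the difference was 1.53 ± 0.12, or 2.90-fold (limma adjusted p = 1.58e-05).

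NDUFB4 read 13.57 and 13.65 in DU145 PGK, 13.59 and 13.58 in EOS and 13.71 with ribavirin. In LNCaP the readings were 14.98 and 15.29, 15.17 and 15.10, and 15.14. With a gap of 1.27 between the lines, the difference was 1.53 ± 0.10, or 2.89-fold, at the smallest p among the members (limma adjusted p = 6.57e-06). NDUFB10, which also faces the intermembrane space, read 13.12 and 13.33, 12.92 and 13.42, and 13.30 in DU145 and 14.15 and 14.63, 14.26 and 14.57, and 14.55 in LNCaP. Its lines did not overlap either, and it differed by 1.21 ± 0.16, or 2.31-fold (limma adjusted p = 0.000397).

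NDUFB8 was the only member called lower in LNCaP. It read 13.60 and 13.50 in DU145 PGK, 13.54 and 13.58 in EOS and 13.47 with ribavirin, against 12.51 and 12.46, 12.51 and 12.41, and 12.53 in LNCaP. All LNCaP arrays lay at least 0.95 below all DU145 arrays. The difference was -1.09 ± 0.10, a level 2.12-fold lower (limma adjusted p = 4.49e-05). Its other bright probe set, read from the same arrays, gave -1.34, and a dimmer kept one, with a mean of 7.79, gave -0.094.

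In the rest of the series, NDUFB2 (0.94 ± 0.13), NDUFB11 (0.60 ± 0.10) and NDUFB1 (0.36 ± 0.09) were called higher. NDUFB1 was not called with the PGK or the EOS arrays alone, without the variance trend or without DU145 PGK array 1. NDUFB6 (0.34 ± 0.13), NDUFB3 (0.32 ± 0.16), NDUFB9 (0.10 ± 0.12) and NDUFB5 (0.04 ± 0.12) were not. With the replicate block NDUFB6 was called (limma adjusted p = 0.0105). Over all roles, the 14 members not called had 95% intervals that reached no farther than 0.70 from 0. Within the array numbers, the median difference between the lines was 0.37 in number 1 and 0.42 in number 2, and 26 of 32 members had the same sign in both. NDUFA5 differed by 0.42 in number 1 and 1.24 in number 2, and NDUFA6 by 0.17 and 0.93, whereas NDUFB4 gave 1.49 and 1.58 and NDUFB8 -1.06 and -1.11.

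**Figure D2:**
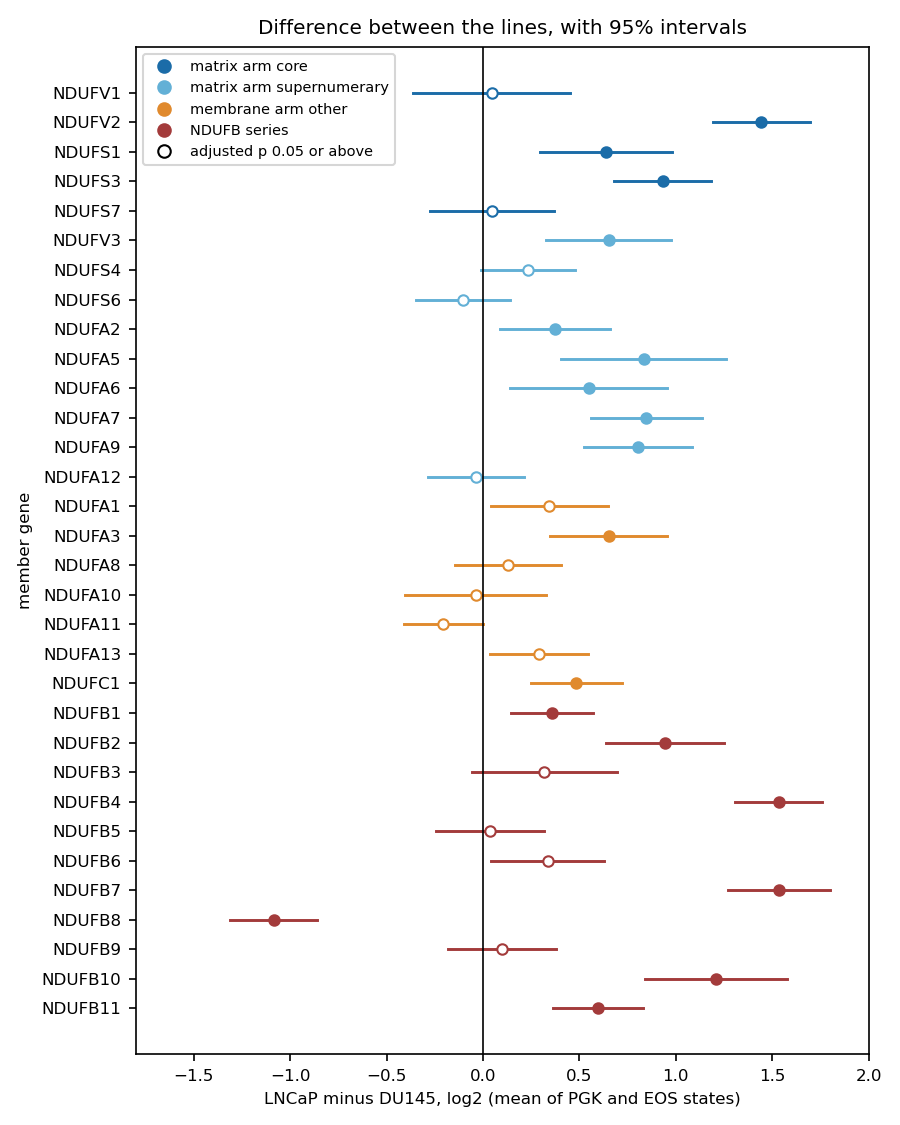
Points give LNCaP minus DU145 on the log2 scale for each of the 32 members, coloured by role, and lines give 95% intervals from limma. Filled points passed an adjusted p of 0.05: 17 lie to the right of 0 and NDUFB8 alone to the left, at -1.09.

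The array carries 61 probe sets for the 32 members, and 21 of the 29 not used passed the filter. In the comparison between the lines, 5 of these 21 had the opposite sign to the probe set used (in NDUFA10, NDUFA7, NDUFB2 and NDUFS1), the brightest with a mean of 7.06. The 4 others with a mean above 10, in NDUFA11, NDUFB2, NDUFB8 and NDUFB10, had the same sign as the one used in that comparison. Between array numbers, 10 of the 21 had the opposite sign in LNCaP, the brightest with a mean of 9.49, and 9 in DU145. The brightest of those in DU145 was of NDUFB2, with a mean of 12.76. It gave 0.10 for number 2 minus 1, against -0.38 for the one used.

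Promoter matches and the difference between the lines can be read together. Of the 10 members with a YY1 match, 6 were called higher and NDUFB8 lower, with a median of 0.59. Of the 20 without, 11 were called higher, with a median of 0.37. The 6 members with an NRF1 match had 3 called higher and a median of 0.39, and the 24 without had 14 higher and 1 lower and a median of 0.43. NDUFB7 and NDUFB4, printed with no match and with 3, differed between the lines by the same 1.53.

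Other genes of the pathway, listed by function, gave these counts between the lines, where 46.2% of all genes were called, 22.6% higher and 23.6% lower. NDUFAB1, the mitochondrial acyl carrier protein that docks on complex I, falls outside the symbol rule and was higher in LNCaP by 1.00 ± 0.10, or 2.01-fold (limma adjusted p = 9.25e-05). Among 19 complex I assembly factors, 12 were called higher and 4 lower, with a median of 0.77. TIMMDC1 (0.97 ± 0.10) and TMEM186 (1.31 ± 0.14), both of the intermediate that builds the membrane arm, were higher, and DMAC2, a factor for its distal part, was lower at -1.55 ± 0.13, or 2.94-fold. Of the other respiratory complexes, 4 of 7 tested subunits of complex III were called, all higher (UQCR10 at 0.95 ± 0.15). Complex IV had 6 of 10, all higher (COX5B at 0.66 ± 0.13), and ATP synthase 10 of 16, all higher (ATP5F1D at 1.07 ± 0.16). Complex II, which does not pump protons, had 0 of 3 higher and 1 lower, SDHA at -0.49 ± 0.16. Among 11 regulators of mitochondrial gene expression, 5 were called higher and 2 lower. TFB2M, a mitochondrial transcription factor, was higher by 0.85 ± 0.13 and GABPA, the DNA-binding subunit of GABP, was lower at -1.29 ± 0.17.

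**Figure D3:**
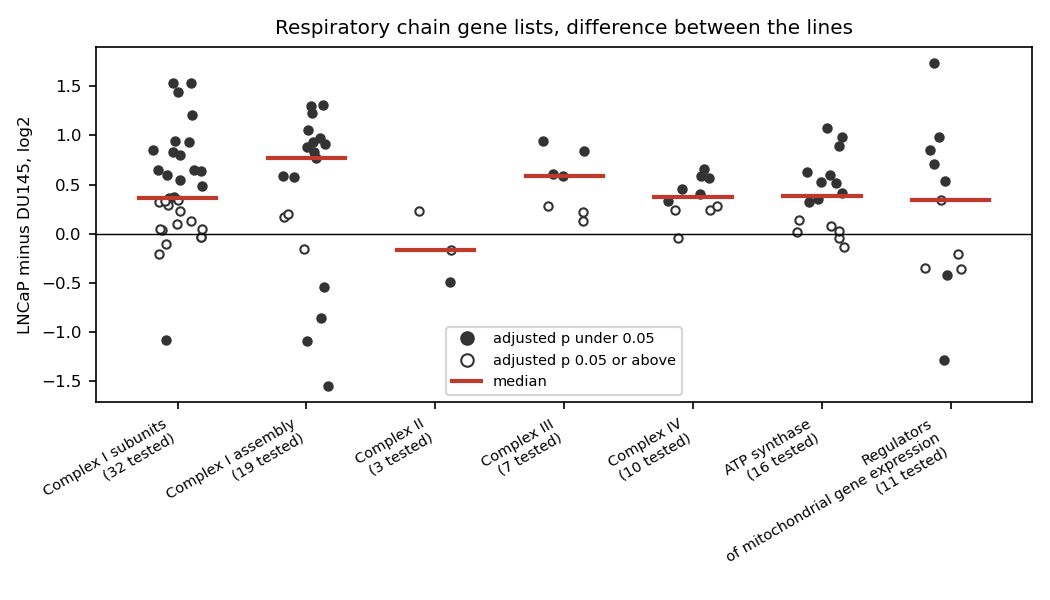
Each point is 1 tested gene of the list named under it, at its LNCaP minus DU145 difference on the log2 scale. Filled points passed a limma adjusted p of 0.05, and red bars are list medians, from 0.77 for the assembly factors to -0.17 for complex II, with 0.37 for the complex I subunits.

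The study's own comparison was of EOS-selected with PGK control cells. No complex I member was called in either line: limma gave 0 of 32 members and 0 of 14313 genes (0%) in DU145 and the same in LNCaP. At an unadjusted p under 0.05 there were 0 members in each line, beside 227 of all genes in DU145 and 596 in LNCaP. The members' median difference was -0.008 in DU145, with 16 of 32 above 0, and 0.011 in LNCaP, with 18 above 0. With arrays scaled to their median instead, only 3 of 32 lay above 0 in each line, with medians of -0.14 and -0.17 beside all-gene medians of -0.14 and -0.12. The median distance from 0 was 0.064 in DU145 and 0.094 in LNCaP, against 0.16 and 0.22 over all genes. The 95% interval of a single member reached 0.40 to either side at the median and 0.60 at the widest.

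NDUFA3, a small membrane arm subunit, had the lowest difference in DU145. It read 12.17 and 12.02 in the PGK arrays 1 and 2 and 11.97 and 11.64 in the EOS arrays. Both EOS arrays were below both PGK arrays, and the difference was -0.29 ± 0.19 (limma adjusted p = 1.00). NDUFB9, of the NDUFB series, had the highest, with 14.03 and 14.02 in PGK and 14.32 and 14.21 in EOS, or 0.24 ± 0.17. In LNCaP, NDUFA3 read 12.68 and 12.40 in PGK and 12.74 and 12.58 in EOS, and NDUFB9 14.02 and 14.51 in PGK and 14.17 and 14.27 in EOS. Those arrays overlapped for both genes.

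The extremes in LNCaP were NDUFV3 and NDUFS7. NDUFV3, a supernumerary subunit at the flavin end, read 11.92 and 12.39 in PGK and 11.74 and 11.92 in EOS. That is -0.33 ± 0.20 (limma adjusted p = 0.999). NDUFS7 read 11.86 and 11.71 in PGK and 11.82 and 12.15 in EOS. Its pairs gave -0.04 and 0.45, so that the fitted 0.20 ± 0.20 comes from the number 2 pair. With the mean of its kept probe sets it was -0.049.

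The arrays of the PGK and EOS groups were also compared for overlap. In DU145, both EOS arrays exceeded both PGK arrays for 6 members (13.2% of all genes) and fell below them for 4 (16% of all genes). LNCaP had 2 such members higher (18% of all genes) and 1 lower (10.6% of all genes). NDUFA11 was above and NDUFV3 below in both lines, and the share of all genes that do so in both lines was not counted. The other kept probe set of NDUFA11 gave an EOS minus PGK difference of -0.006 in DU145 and 0.11 in LNCaP. That of NDUFV3 gave -0.11 and -0.27. The response was then compared between the lines directly: limma called 0 of 32 members and 0% of all genes, with 0 members and 465 genes at an unadjusted p under 0.05. NDUFA3 had the highest difference of responses, LNCaP minus DU145, at 0.41 ± 0.27, and NDUFB9 the lowest, at -0.28 ± 0.24. The median interval was 0.56 to either side, so differences of that size could not be resolved. Of 66 genes tested in the other pathway lists, limma called 0 in these 3 comparisons, with 2 at an unadjusted p under 0.05 in LNCaP and 0 in the others.

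Ribavirin was compared with EOS cells in a fit with the array number as a term, since both ribavirin arrays carry number 2. The comparison rests on 1 treated array per line. No member was called: limma gave 0 of 32 and 0% of all genes in DU145, in LNCaP and for the mean of both lines. At an unadjusted p under 0.05 there was 1 member in DU145 and 0 in the other two, beside 364, 406 and 341 of all genes. The members' medians were 0.030, 0.027 and 0.020, with 18 of 32 above 0 in each. Scaled to the array median, 4 of 32 were above 0 in DU145 and 32 of 32 in LNCaP, with medians of -0.079 and 0.198 beside all-gene medians of -0.073 and 0.148.

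The member at an unadjusted p under 0.05 was NDUFA5, a supernumerary subunit of the matrix arm. In DU145 it read 12.43 and 12.13 in the PGK arrays, 12.13 and 11.97 in the EOS arrays and 12.38 with ribavirin. The treated array stood above both EOS arrays and within the range of the PGK arrays. The fitted difference was 0.45 ± 0.18 (unadjusted p = 0.0346, limma adjusted p = 1.00), and the array exceeded EOS 2 alone by 0.41. In LNCaP it read 13.27 with ribavirin and 13.29 in EOS 2. NDUFA5 also had the highest mean over both lines, 0.25 ± 0.12.

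At the other end in DU145 stood NDUFB7, at 10.72 with ribavirin against 11.01 in EOS 2 and a fitted -0.31 ± 0.18. With the mean of its kept probe sets the sign turned, to 0.33. In LNCaP it was 12.55 with ribavirin and 12.48 in EOS 2. The extremes in LNCaP were NDUFA7, at 13.37 with ribavirin and 13.15 in EOS 2 (fitted 0.23 ± 0.16), and NDUFB9, at 14.23 and 14.27 (fitted -0.14 ± 0.17). For NDUFB9 the sign turned with no replicate block (0.0059) and with arrays scaled to their median (0.028), so that its direction is not settled. None passed the threshold. NDUFB9 also had the lowest mean over both lines, -0.13 ± 0.12.

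**Figure D4:**
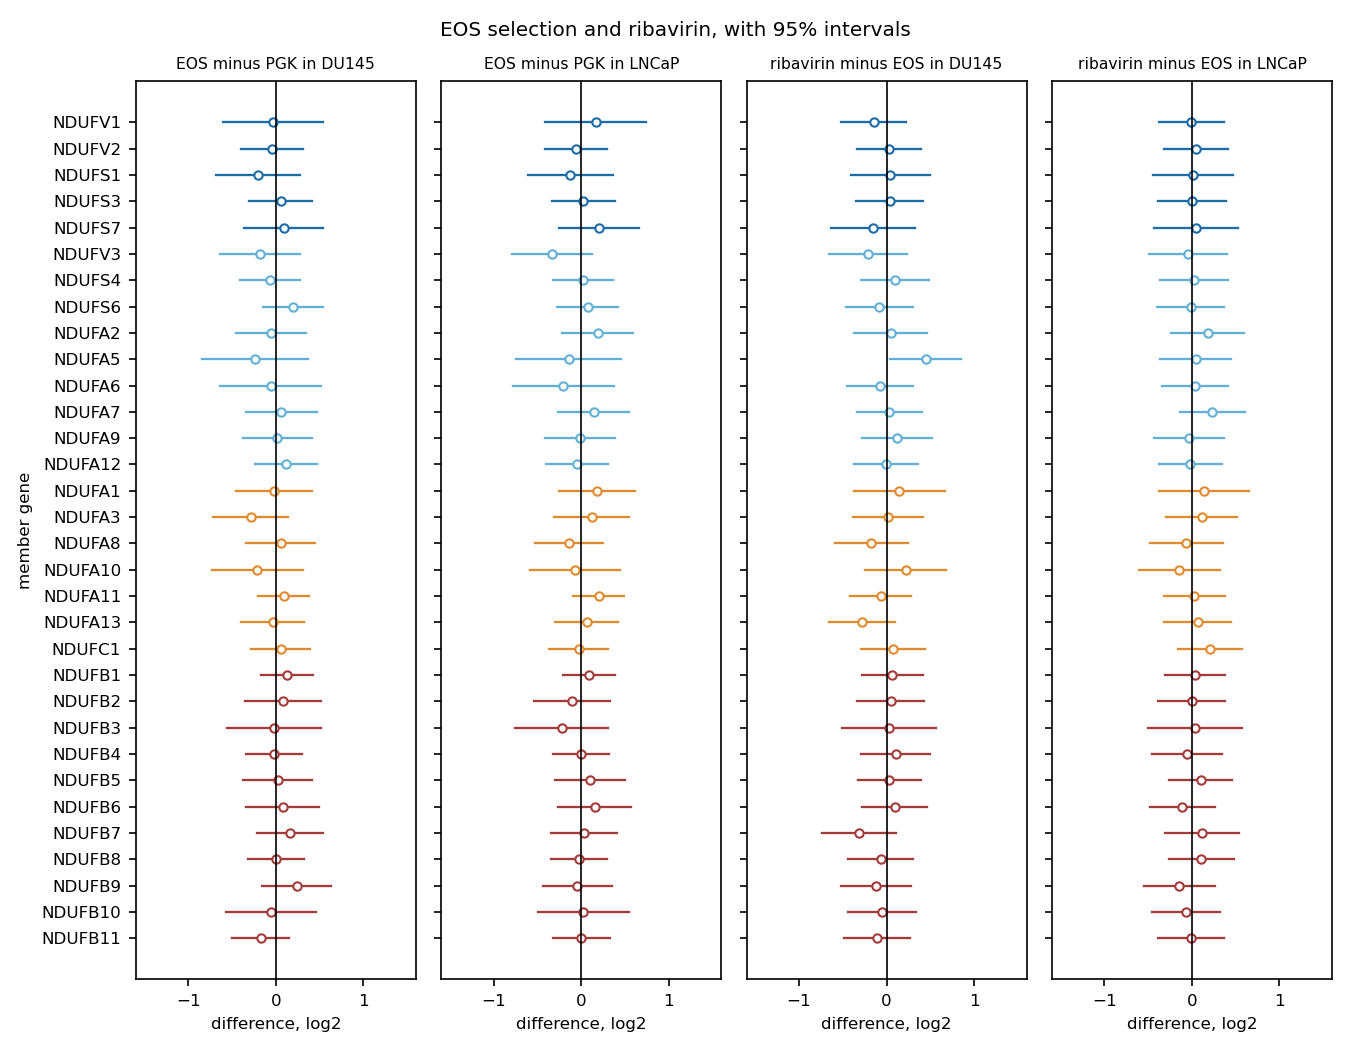
The panels give EOS minus PGK and ribavirin minus EOS in each line, on the log2 scale, for the 32 members coloured by role as in the plot of line differences, with 95% intervals from limma. No point passed an adjusted p of 0.05, and all lie between -0.33 and 0.45.

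Arrays numbered 2 were last compared with arrays numbered 1, within the PGK and EOS groups. In LNCaP, 2 of 32 members were called, NDUFA6 and NDUFA5, both higher in number 2, where 6.45% of all genes were called, 3.6% higher and 2.85% lower. In DU145 no member and 0% of all genes were called, with 4 members and 1114 genes at an unadjusted p under 0.05. The members' median was -0.045 in DU145, with 13 of 32 above 0, and 0.13 in LNCaP, with 21 above 0. All-gene medians were 0.02 in each line. The PGK and the EOS pair had the same sign for 24 members in DU145 and 27 in LNCaP.

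NDUFA6, a subunit of the LYR family that holds the acyl carrier protein, read 13.10 and 13.61 in the LNCaP PGK arrays 1 and 2 and 12.81 and 13.49 in the EOS arrays. Number 2 was higher in both pairs, by 0.59 ± 0.12 (limma adjusted p = 0.0323). In DU145 it read 12.83 and 12.63 in PGK and 12.74 and 12.61 in EOS, lower in number 2 by a margin that was not called. The other kept probe set of NDUFA6, with a mean of 9.41, had the opposite sign in LNCaP, at -0.34.

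NDUFA5 read 12.84 and 13.30 in LNCaP PGK and 12.56 and 13.29 in EOS, or 0.59 ± 0.13 (limma adjusted p = 0.0405). Both calls in LNCaP were lost with arrays scaled to their median. They were also lost without any 1 of the 8 PGK and EOS arrays. Such a fit has fewer than 2 residual degrees of freedom, so that this loss says little about any single array. The difference between the lines in this number effect was 0.82 ± 0.19 for NDUFA5 and 0.76 ± 0.17 for NDUFA6 (limma adjusted p = 0.107 and 0.110). It was called for 0 members, with 2 members and 2007 genes at an unadjusted p under 0.05, and for 0.943% of all genes. NDUFA7 had the lowest such difference, -0.39 ± 0.17. The deposited scale and the ACTB end ratio differ between the numbers, and their part in these differences was not tested.

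NDUFV1 had the lowest difference in both lines. It read 13.07 and 12.62 in DU145 PGK and 13.09 and 12.54 in EOS, then 12.99 and 12.60 in LNCaP PGK and 13.13 and 12.79 in EOS. Number 2 read below number 1 in all 4 pairs. The difference was -0.50 ± 0.12 in DU145 and -0.36 ± 0.12 in LNCaP, and neither passed (limma adjusted p = 0.463 and 0.121). NDUFB10 was the highest in DU145, at 0.36 ± 0.13, and gave 0.39 in LNCaP. Its other kept probe set, with a mean of 11.94, gave 0.056 in DU145 and 0.17 in LNCaP. Among the other lists, 2 of 66 genes tested were called in LNCaP, both lower in number 2, beside 2.85% of all genes called lower. They were NDUFAF1, an assembly factor, at -1.06 ± 0.18 (limma adjusted p = 0.015), and TFAM, the packaging factor of mitochondrial DNA, at -0.76 ± 0.16 (limma adjusted p = 0.0307).

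**Figure D5:**
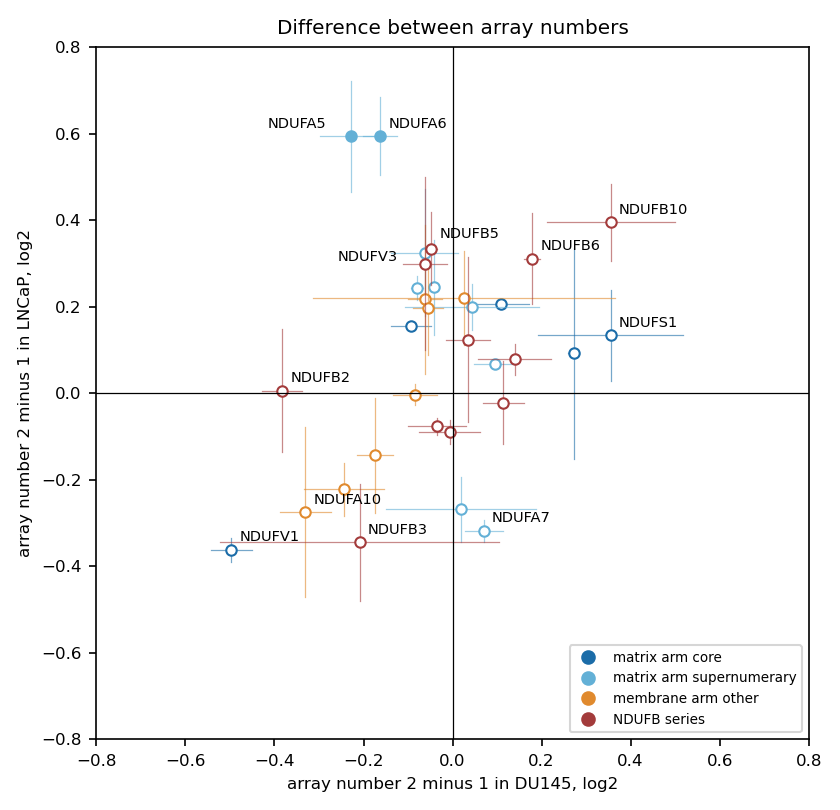
Each point is 1 member at its difference between array numbers, 2 minus 1, in DU145 (x axis) and LNCaP (y axis), on the log2 scale, coloured by role. Thin lines join the values of the PGK pair and the EOS pair, and filled points passed a limma adjusted p of 0.05 in LNCaP. NDUFA5 and NDUFA6 stand alone at 0.59 in LNCaP, and NDUFV1 is the lowest on both axes.

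As a measure of scatter within groups, the 2 arrays of a group differed for the median member by 0.14 in DU145 PGK, 0.13 in DU145 EOS, 0.23 in LNCaP PGK and 0.19 in LNCaP EOS. Over all genes the median gap was 0.22, 0.30, 0.36 and 0.37. The largest gaps were those of NDUFV1 in DU145, 0.45 and 0.54, and of NDUFA6 and NDUFA5 in LNCaP, 0.51 and 0.72. In size, the differences of NDUFV2, NDUFB4, NDUFB7, NDUFB8 and NDUFB10 between the lines exceeded every one of them. So did those of NDUFB2, NDUFS3, NDUFA7, NDUFA5 and NDUFA9, by less.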

How the data were processed

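The authors deposited 1 linear intensity per probe set and array. The submitters' processing notes list MAS5 and affy, with neither version nor role. The background correction was not given in the sources used here. Arrays were brought to a common 2% trimmed mean of 500, then to log2(intensity + 16), so that differences of dim genes come out too small. Of 54675 probe sets, 41097 had 1 gene symbol, 1801 several and 11777 none. A probe set was kept if it exceeded the array's median on at least 2 arrays, and per gene the one of highest mean was used. Differences were tested with limma 3.58.1 (R 4.3.3, eBayes with trend) over 14313 genes, with Benjamini-Hochberg adjustment at 0.05. EOS and line comparisons used the means of 6 groups (4 residual degrees of freedom). Ribavirin and number comparisons added the array number within line (2 residual degrees of freedom). Values by array are given for the members at either extreme of a comparison and, past the threshold, the 5 of smallest p per direction. At most 3 genes of smallest p are named per pathway list. The members, lists and motifs were chosen with earlier results of these data known. Sequences are from RefSeq. The fit was tested on simulated data. The number of arrays limits the precision.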

Additional observations from a re-analysis of the deposited data

How the results depend on the processing

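Of the 18 members called between the lines, 15 kept their call in at least 16 of 19 other settings, while NDUFA2, NDUFA6 and NDUFB1 kept it in 6, 8 and 14. With the replicate block, which pairs arrays of the same number, 21 members were called between the lines. These were all 18 with NDUFA1, NDUFA13 and NDUFB6 added. In each EOS comparison 0 members were called with the block, as without it, so that there was no call for it to end. Deviations from the group means correlated between same-numbered PGK and EOS arrays at 0.12 in DU145 and 0.48 in LNCaP over 14313 genes, and 2 pairs a line do not settle whether the numbers pair the arrays. On unscaled intensities 0 members were called between the lines, and 3.33% of all genes. The median difference between the lines was 0.28 with quantile normalization, 0.28 unscaled, 0.44 with the EOS arrays alone and 0.48 with arrays scaled to their median (an alternative chosen after seeing the data, which moved the all-gene median to 0.10). It was 0.32 to 0.44 with 1 array left out in turn, the highest without DU145 EOS 1, and 15 to 18 members were then called.

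The 2 members called between array numbers in LNCaP became 1 with a pseudocount of 1, with no filter on dim probe sets and with the mean of kept probe sets. They became 0 without the variance trend and with scaling to the median. With any of the 8 PGK or EOS arrays left out, which leaves fewer than 2 residual degrees of freedom, neither call remained. The EOS median was -0.20 unscaled and -0.14 with median scaling in DU145, beside all-gene medians of -0.18 and -0.14, and -0.17 with median scaling in LNCaP. For the difference of EOS responses it was -0.025 with the mean of kept probe sets and 0.25 unscaled (all genes 0.22), and -0.089 to 0.085 with 1 array left out. The ribavirin medians with median scaling were -0.079 in DU145 and 0.198 in LNCaP. Signs turned for NDUFS7 under EOS in LNCaP (-0.049) and NDUFB7 under ribavirin in DU145 (0.33), both with the mean of kept probe sets, and for NDUFB9 under ribavirin in LNCaP, at 0.0059 with no replicate block and 0.028 with median scaling. The causes were not tested. In all, 154 of 168 recomputed counts and 154 of 168 medians stayed near the reported value, a median being near if it moved by less than 0.064. The 14 counts that moved were all of the lines or of the array numbers in LNCaP, the only comparisons with a member called. In every other comparison a count of 0 stayed 0, which says nothing about how stable a call is. With at most 2 arrays a group, single differences under about the intervals given cannot be resolved.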
